A study of Mus musculus with 12 samples.

Results

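The replication-dependent histone genes were followed in the liver and brain of mice with and without Mettl5, which encodes an m6A methyltransferase of 18S rRNA. Members were the genes whose symbol starts with Hist1h, Hist2h, Hist3h or Hist4, and annotated pseudogenes were left out. The rule matched 70 symbols, 3 of them pseudogenes, which left 67 members among the 55487 genes of the count table. They comprised 6 genes for the linker histone H1, 18 for H2A, 18 for H2B, 12 for H3 and 13 for H4.

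Total RNA was sequenced from both organs of 6 mice, in 4 groups of 3 libraries: KO liver and KO brain (Mettl5 knockout, mice A, C and F), and WT liver and WT brain (mice B, D and E). In the KO line, exon 2 of Mettl5 was floxed in embryonic stem cells of a C57BL/6 by 129S6 hybrid, the line was backcrossed to B6, and exon 2 was deleted in the whole body with a CMV-cre transgene. The labels call the controls WT, whereas the study's figure legends describe the RNA sequencing controls as heterozygous (Mettl5+/-) in most places and as Mettl5+/+ in a littermate pair shown for the Mettl5 locus, so their genotype is uncertain and WT is used here as a label only. Mice of the study were 4 weeks to 6 months old, the labels give neither age nor sex, and they name no treatment. The legends also speak of 3 pairs of mice, but the labels do not say which KO and WT mice belong together, so genotypes were compared without pairs and p-values measure only the spread between these mice.

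Replication-dependent histones package new DNA during S phase. Their genes lie in clusters, mostly lack introns, and give the only animal mRNAs that normally end in a conserved stem-loop in place of a poly(A) tail, which the stem-loop binding protein Slbp recognises and the U7 snRNP helps to cut. Adult liver and brain hold few dividing cells, and some of these genes are also known to give polyadenylated transcripts in cells that have left the cycle. Total RNA libraries hold both kinds of transcript, which these counts do not separate.

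The members lay in 4 places of the mouse genome (build mm10). The 54 Hist1 genes lay between positions 21715763 and 23934851 of chromosome 13, and the 10 Hist2 genes between 96219865 and 96270132 of chromosome 3. Hist3h2a and Hist3h2ba lay on chromosome 11 and Hist4h4 on chromosome 6. The annotation gave 61 of the 67 a single exon, and their exon length ran from 312 bases to 7425 bases in Hist1h1d, with a median of 539.

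The stem-loop was present in the annotated transcripts of 46 of the 67 members, or 68.7%, against 303 of 21830 other protein-coding genes (1.39%). The search took 16 bases that begin with GG and end with CC, with 6-base arms that pair (G with T allowed) around a loop of 4 bases, of which the first and the third had to be T and the second T or C. The same 16 bases, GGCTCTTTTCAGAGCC, were found in 26 members. The examples show this form in an H1 and an H2B gene and other forms in an H4 and an H2A gene, from GENCODE transcripts, with the stem-loop in capitals and 5 flanking bases on each side.
Hist1h1c: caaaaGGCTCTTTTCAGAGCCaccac
Hist3h2ba: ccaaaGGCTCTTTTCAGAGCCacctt
Hist1h4d: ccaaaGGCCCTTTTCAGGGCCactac
Hist2h2ac: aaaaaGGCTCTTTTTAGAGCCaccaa
The form in Hist1h4d, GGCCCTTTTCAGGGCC, was found in 7 members. Annotated transcripts did not all stop there: they ran on for 3 to 4884 bases past the stem-loop, with a median of 91. In the 21 members without a stem-loop, it was not found in the annotated exons, which says nothing of sequence beyond the annotated end.

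Promoters from RefSeq (build GRCm38.p6, 250 bases before to 50 after the start) matched 61 members. CCAAT, searched on both strands, was present in 52 of them (85.2%), against 37.9% of all 27025 promoters, and by class in all 6 H1, 17 H2A, 16 H2B and 10 H3 promoters but in 3 of 12 H4 promoters. TATAAA was present in 57.4% of the members' promoters against 14.2% of all. The octamer ATTTGCAT was present in 7 H2A and 6 H2B promoters and in none of the other members, together 21.3%, against 1.75% of all promoters. Of the 3 promoters shown, that of the H2A gene Hist1h2ac (chr13:23683910-23684209, minus strand) also holds the annotated start of Hist1h2bc, the member with the largest excess in liver. No promoter was matched to Hist1h2bc itself. Hist3h2ba (chr11:58948661-58948960, plus strand) is the H2B gene with the largest excess in brain, and Hist1h4d (chr13:23581318-23581617, plus strand) the H4 gene with the highest level in brain. Capitals mark these 3 motifs or their reverse complements.
Hist1h2ac: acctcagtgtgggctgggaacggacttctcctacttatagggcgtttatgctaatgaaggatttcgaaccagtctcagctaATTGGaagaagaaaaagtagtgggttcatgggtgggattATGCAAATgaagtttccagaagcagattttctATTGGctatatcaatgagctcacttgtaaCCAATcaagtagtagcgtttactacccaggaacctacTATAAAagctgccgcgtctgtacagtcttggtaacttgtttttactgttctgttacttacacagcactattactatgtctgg
Hist3h2ba: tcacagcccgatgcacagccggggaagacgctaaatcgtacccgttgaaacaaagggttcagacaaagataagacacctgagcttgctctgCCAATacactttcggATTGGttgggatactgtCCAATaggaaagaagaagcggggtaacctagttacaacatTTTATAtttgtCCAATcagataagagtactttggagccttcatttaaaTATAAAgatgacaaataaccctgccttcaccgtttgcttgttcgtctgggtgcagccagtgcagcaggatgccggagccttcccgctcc
Hist1h4d: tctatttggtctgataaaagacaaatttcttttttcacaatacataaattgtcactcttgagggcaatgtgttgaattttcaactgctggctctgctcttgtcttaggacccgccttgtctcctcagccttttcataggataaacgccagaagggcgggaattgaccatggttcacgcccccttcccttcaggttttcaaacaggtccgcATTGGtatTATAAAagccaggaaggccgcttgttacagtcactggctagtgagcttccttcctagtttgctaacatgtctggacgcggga

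Library totals ran from 14403309 to 21623180 counts. Levels are given as CPM, counts scaled to library size with TMM factors set over the 12 libraries, and levels compared between genes as CPM per kilobase of annotated exon. Mettl5 was at 10.1 to 19.0 CPM in the WT liver and 4.64 to 5.22 in the KO liver libraries, and at 3.95 to 7.12 in the WT brain and 2.61 to 3.12 in the KO brain libraries. KO and WT libraries did not overlap, but with edgeR's quasi-likelihood test the log2 fold changes of -1.44 ± 0.27 (SE) in liver and -0.84 ± 0.27 in brain had adjusted p-values of 0.383 and 0.373. The gene was called lower in KO liver without the filter on low counts (adjusted p = 4.29e-06), with DESeq2 (adjusted p = 0.00193), with Y-linked transcripts as a covariate (adjusted p = 0.0710) and without mouse D (adjusted p = 0.0848), and in KO brain without the filter (adjusted p = 0.0936). Counts cover all exons of Mettl5 and so do not isolate the deleted exon. Mice E (WT) and F (KO) had at most 20 counts of Y-linked transcripts and the other 4 mice at least 2112, so each genotype held 1 mouse without them. The hepatocyte markers summed to 70699 to 95025 CPM in liver and 86.6 to 297 in brain, and the neuron markers to 2880 to 3349 CPM in brain and 13.1 to 25.8 in liver. Oligodendrocyte and astrocyte markers summed to at least 1102 and 555 CPM in brain and to at most 4.40 and 16.2 CPM in liver, and neutrophil markers to under 0.877 CPM in every library.

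Together the members reached 416 ± 29.1 CPM (SD, n = 3) in WT liver, 422 ± 27.2 in KO liver, 538 ± 63.3 in WT brain and 528 ± 43.0 in KO brain. The genotypes overlapped in each tissue. Without TMM factors the 4 sums were 321, 341, 740 and 620 CPM, so the distance between the organs depends on the scaling. A few genes held most of this sum. In liver, Hist1h2bc, Hist1h1e and Hist1h1c held 61.1% of it and 10 genes 89.5%; in brain, Hist1h4d, Hist1h1c and Hist1h1e held 48.4% and 10 genes 76.0%. Conversely, 7 members had no count in any library, among them Hist1h2ao, Hist1h2ap, Hist1h2ba, Hist2h2aa1 and Hist2h3c1. Of these 7, Hist1h2ba, a testis-type H2B, had 72.6% of its 100-base windows found in no other annotated transcript, whereas the other 6 had at most 13.6%. In Hist2h3c1, 67.1% of the windows overlap another transcript annotated at the same place and 32.9% were found in genes elsewhere. Reads from near-identical copies or overlapping annotations can be discarded or split when single genes are counted. The counts of 0 of these 6 members thus do not show that they were silent.

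The members tested are given next by how much sequence they share. Of the 42 members with at least 50% unique windows, 34 passed the filter on low counts over the 12 libraries; of the 25 with fewer, 10 passed. Values of members such as Hist1h3i (31.4% unique), Hist1h4k (35.7%) and Hist2h3b (22.9%) are uncertain as values of a single gene.

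The classes differed in how they were divided between the organs. The H1 genes summed to 179 ± 17.7 CPM in WT liver and 203 ± 23.6 in WT brain, and the libraries of both organs overlapped. The H4 genes summed to 79.6 ± 5.61 CPM in WT liver and 194 ± 30.1 in WT brain. The H2A genes summed to 30.5 ± 4.04 and 65.7 ± 13.1 CPM and the H3 genes to 11.5 ± 2.65 and 29.2 ± 2.52, both lower in every WT liver library than in every WT brain library. The H2B genes went the other way, at 115 ± 8.83 CPM in WT liver and 46.6 ± 1.42 in WT brain. Without Hist1h2bc, the other 17 H2B genes summed to 11.2 ± 0.919 CPM in WT liver and 31.7 ± 0.203 in WT brain, so that the direction of the class rested on 1 gene. The size of every class difference and the H1 overlap depended on the TMM scaling. As CPM of all counts, without TMM factors, WT liver and WT brain were at 138 ± 8.60 and 279 ± 43.2 for H1 and at 88.8 ± 10.5 and 64.0 ± 4.18 for H2B. On that scale they were at 61.7 ± 8.88 and 266 ± 45.6 for H4, at 23.4 ± 1.94 and 90.4 ± 20.0 for H2A and at 8.83 ± 1.81 and 40.1 ± 3.16 for H3. The KO libraries gave the same order, with H2B at 110 ± 20.0 CPM in liver and 50.1 ± 2.89 in brain, and with 11.6 ± 1.62 and 34.5 ± 2.34 CPM without Hist1h2bc. In these bulk samples, fewer cells of a type and less RNA per cell cannot be told apart.

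**Figure D1:**
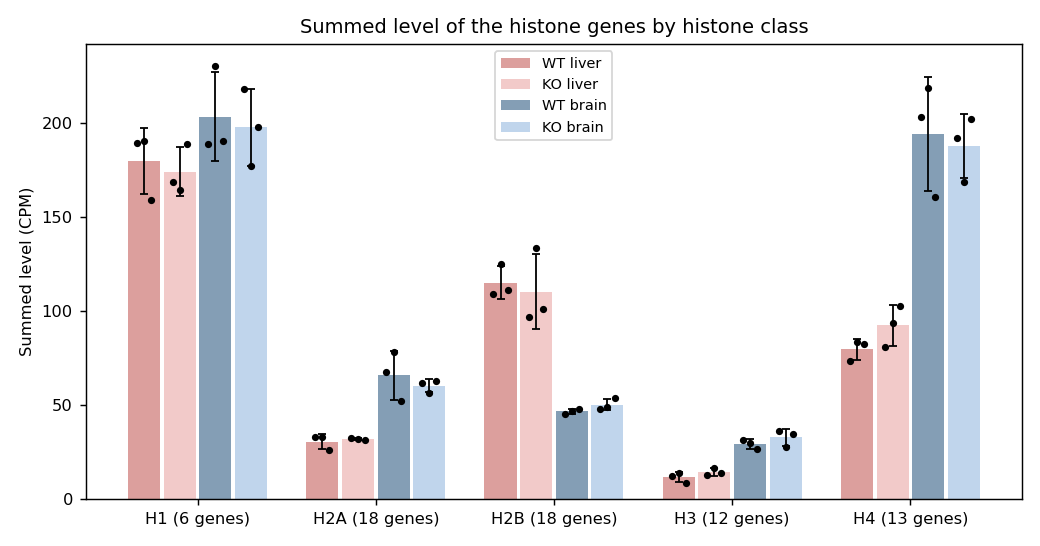
Summed level (CPM, vertical axis) of the histone genes of each class in the 4 groups; bars are means, error bars SDs and points single libraries, n = 3 libraries a group. On this TMM scale H4, H2A and H3 were lower in liver, H1 overlapped between organs, and H2B was higher in liver through Hist1h2bc; without TMM factors H1 was at 138 ± 8.60 CPM in WT liver and 279 ± 43.2 in WT brain.

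Liver was compared with brain within each genotype, on separate mice for WT and KO. In WT mice 41 members passed the filter, of which 28 were lower and 3 higher in liver at an adjusted p under 0.1 (edgeR's quasi-likelihood test, Benjamini-Hochberg adjustment over all genes tested). Most genes differ between these organs: 78.3% of the 17694 genes tested were called, and 42.9% were called lower in liver. The members' share of calls (75.6%) was thus close to that of all genes, and 68.3% were called lower in liver. In KO mice 27 of 38 members tested were lower and 1 higher in liver, 73.7% called and 71.1% called lower, beside 80.2% and 44.1% of 17396 genes. On the log2 scale the members' median, liver against brain, was -1.20 in WT and -1.09 in KO mice, against -0.16 and -0.17 for all genes tested. Part of the tally was set by the filter, since a gene with almost no counts in liver enters through brain and can then only be lower in liver. In WT mice 5 members had fewer than 10 counts in every liver library (Hist3h2ba, Hist1h2ai, Hist1h3i, Hist1h2ag and Hist1h2bf), 4 of which were called, and in KO mice 3 (Hist3h2ba, Hist1h2ai and Hist1h4a), all called; 0 members had so few counts in every brain library. Among genes with at least 10 counts in a library of each organ, 24 of 36 members (66.7%) were lower in WT liver, beside 32.3% of 13503 genes, and 24 of 35 (68.6%) in KO liver, beside 33.9% of 13281. Their medians were -1.08 and -0.98, against 0.13 and 0.14 for those genes. Scaling by library totals alone moved the median of all genes in WT mice to -0.99 and that of the members to -2.03, and the members' median lay 1.04 lower than that of all genes under both scalings (-1.04). Without the filter on low counts that distance was -0.46, and with DESeq2 -0.62.

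By class, the calls lower in liver in WT and KO mice were 2 and 3 of 5 H1 genes tested, 7 of 9 and 5 of 7 H2A genes, 5 of 9 and 6 of 8 H2B genes, 5 and 4 of 7 H3 genes, and 9 of 11 H4 genes in each. Over all genes 42.9% and 44.1% were called lower in liver. The tallies include members that entered through brain. In WT mice these were Hist1h2ai and Hist1h2ag (H2A), Hist3h2ba and Hist1h2bf (H2B) and Hist1h3i (H3). In KO mice they were Hist1h2ai, Hist3h2ba and Hist1h4a (H4). Hist3h2ba is also among the shared calls that follow. Of the genes called, 24 were called in both genotypes, which is 77.4% of the WT and 85.7% of the KO calls, beside 88.0% and 87.4% over all genes, and 23 of the 24 were lower in liver in both. The remaining gene was Hist1h2bc.

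**Figure D2:**
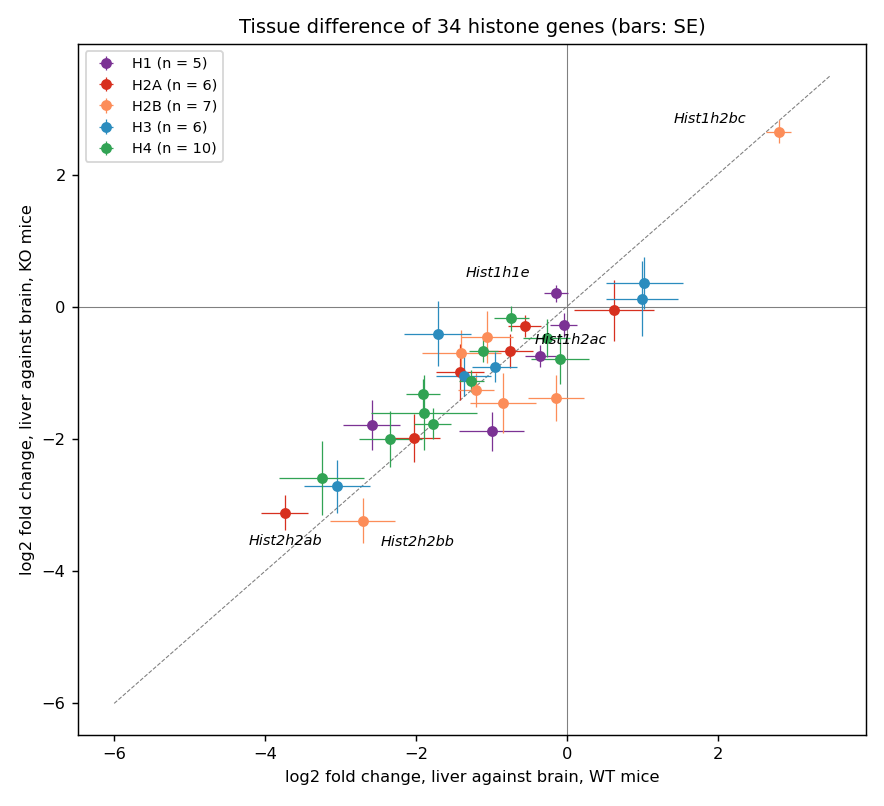
log2 fold change of liver against brain in WT (horizontal axis) and KO mice (vertical axis) for the 34 members tested in both and with at least 10 counts in a library of each group; bars are SEs, colours are histone classes and the dashed line marks equal values. Most members lie below and left of 0, with Hist1h2bc alone at 2.81 and 2.65.

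Hist1h2bc (ENSMUSG00000018102.5, plus strand, 23684199 to 23692908 of chromosome 13) was the member with the largest excess in liver. Its level was 96.7, 114 and 100 CPM in the WT and 86.7, 120 and 88.8 CPM in the KO liver libraries. In brain it was 13.3, 14.9 and 16.3 CPM in WT and 15.3, 15.4 and 16.3 CPM in KO mice. The lowest liver library was thus far above the highest brain library. The log2 fold change of liver against brain was 2.81 ± 0.16 (SE; adjusted p = 7.55e-08) in WT and 2.65 ± 0.17 (adjusted p = 3.67e-07) in KO mice. With library totals alone the values were 1.97 and 2.10, still called in both. It held 24.9% ± 1.48 of the members' summed level in WT liver and 2.80% ± 0.545 in WT brain. Per kilobase it was first of the 67 in liver, at 87.5 CPM per kb, and at rank 12 in brain, at 13.2. Its annotated transcript is spliced from 2 exons, in contrast to most members, and no stem-loop was found in those exons.

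Hist1h2ac, an H2A gene, starts 251 bases from Hist1h2bc on the opposite strand, within the 300 bases printed above. It was at 2.68, 4.70 and 3.11 CPM in the WT liver and 7.07, 4.65 and 6.05 in the WT brain libraries. In KO mice it was at 4.47, 4.36 and 3.41 CPM in liver and 7.32, 5.16 and 6.88 in brain. The genes of this pair differed in direction: Hist1h2ac was lower in liver by log2 fold changes of -0.75 ± 0.31 (adjusted p = 0.0447) in WT and -0.67 ± 0.26 (adjusted p = 0.0375) in KO mice, with overlapping libraries in WT. Its printed region held an octamer, CCAAT on both strands and TATAAA. The members formed 12 such head-to-head pairs of an H2A and an H2B gene with starts at most 500 bases apart. In 3 pairs both genes were tested in both genotypes, and Hist2h2ac with Hist2h2be and Hist1h2ak with Hist1h2bn had negative values for both genes in both genotypes (-0.56 and -1.06, and -1.41 and -1.40, in WT mice).

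**Figure D3:**
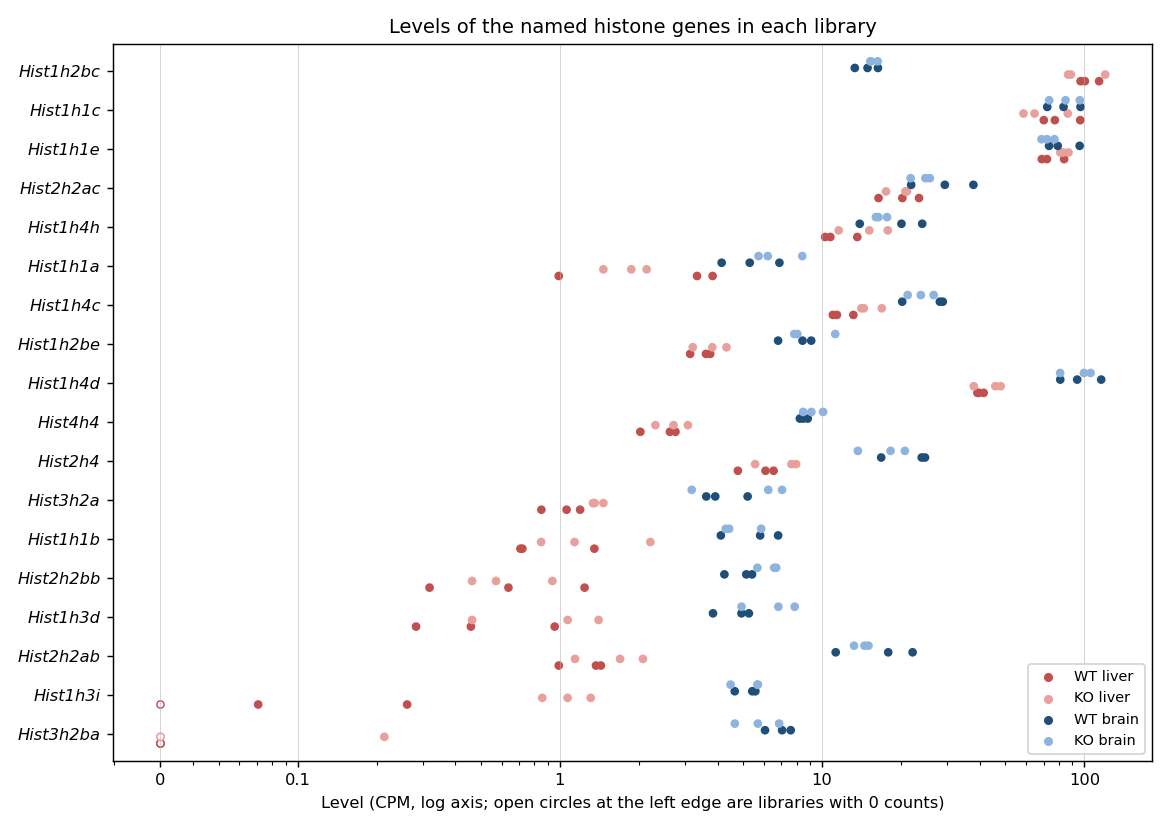
Level of 18 members in each library (CPM, log axis), ordered by their log2 fold change between WT organs; each point is 1 library and open circles at the left edge are libraries with 0 counts. Hist1h2bc stands apart at the top, Hist1h1c and Hist1h1e overlap between organs in WT mice, and Hist3h2ba and Hist1h3i are lowest in WT liver.

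At the other end stood Hist3h2ba, an H2B gene apart from the large clusters (ENSMUSG00000056895.4, plus strand, 58948920 to 58949533 of chromosome 11). It had 0 counts in all 3 WT liver libraries and 120, 191 and 178 counts in the WT brain libraries. The KO liver libraries held 0, 3 and 0 counts and the KO brain libraries 73, 121 and 110. Its mean of 6.90 ± 0.776 CPM in WT brain was at least 32.0-fold higher than in WT liver, with the liver set at 3 counts a library. In KO mice the ratio of brain to liver was 80.3, with a 95% counting interval from 27.5 to 389 that rests on 3 liver counts. It passed the filter in both genotypes through its brain counts. Its printed promoter held CCAAT or its reverse complement and TATAAA but no octamer. Its neighbour Hist3h2a, an H2A gene, was also lower in liver, with log2 fold changes of -2.02 ± 0.34 and -1.99 ± 0.36 (adjusted p = 0.000308 and 0.000603).

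Hist2h2ab, an H2A gene of chromosome 3, was at 1.37, 1.43 and 0.990 CPM in the WT liver and 17.9, 22.1 and 11.3 CPM in the WT brain libraries. The KO libraries held 1.70, 1.14 and 2.07 CPM in liver and 15.02, 14.5 and 13.2 in brain. The organs did not overlap, and the log2 fold changes were -3.74 ± 0.32 (adjusted p = 1.49e-06) in WT and -3.12 ± 0.26 (adjusted p = 2.33e-06) in KO mice. Its immediate neighbour Hist2h2ac, which encodes an H2A too, differed far less. Hist2h2ac was at 16.4 to 23.4 CPM in WT liver and 21.9 to 37.8 in WT brain, with log2 fold changes of -0.56 ± 0.22 (adjusted p = 0.0396) in WT and -0.29 ± 0.16 (adjusted p = 0.128) in KO mice. Without mouse D the WT value was -0.355 and was not called. Over the alternative settings of edgeR and DESeq2 the KO value reached -0.83, and its lowest adjusted p was 0.00135. Per kilobase, Hist2h2ac was at 38.3 CPM in liver and Hist2h2ab at 3.27, against 51.7 and 35.3 in brain.

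All 11 H4 genes tested had negative values, liver against brain, in both genotypes, and 9 passed the test in each. Hist1h4a entered the KO comparison through brain. Of all genes tested, 9503 of 17694 were negative in WT and 9306 of 17396 in KO mice, and 42.9% and 44.1% were called lower in liver. Hist1h4d, the member with the highest level per kilobase in brain (84.5 CPM per kb, against 36.9 in liver), was at 39.6, 39.1 and 41.3 CPM in the WT liver and 93.9, 116 and 80.9 CPM in the WT brain libraries. Its log2 fold changes were -1.27 ± 0.17 (adjusted p = 5.15e-05) in WT and -1.12 ± 0.16 (adjusted p = 0.000122) in KO mice. Hist2h4 differed by -1.90 ± 0.22 and -1.32 ± 0.23, and Hist4h4 by -1.77 ± 0.25 and -1.77 ± 0.24. Hist1h4c differed by -1.11 ± 0.19 (adjusted p = 0.000365) in WT mice. Hist1h4h, among the 5 highest members per kilobase in brain, was lower in liver in WT mice by -0.74 ± 0.23 (adjusted p = 0.0142). Its KO value was -0.17 ± 0.19 (adjusted p = 0.428). Without mouse B the WT value was -0.50 and no longer passed the threshold. Over the alternative settings of edgeR and DESeq2 the KO value reached -0.71, and its lowest adjusted p was 0.0159.

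Among the H3 genes, Hist1h3d differed by log2 fold changes of -3.05 ± 0.44 (adjusted p = 9.48e-05) in WT and -2.72 ± 0.40 (adjusted p = 0.000135) in KO mice, liver against brain. Hist1h3i, an H3 gene on the minus strand of chromosome 13 (21782960 to 21783370), had 4, 0 and 1 counts in WT liver and 92, 140 and 137 counts in WT brain. It entered the WT comparison through brain, and a fold would rest on 5 liver counts, so none is given. In KO mice the log2 fold change, liver against brain, was -2.29 ± 0.31 (adjusted p = 8.11e-05). Hist1h3a and Hist1h3b were the remaining members called higher in liver, in WT mice, with 1.001 ± 0.48 (adjusted p = 0.0821) and 1.03 ± 0.51 (adjusted p = 0.0933). They had 7 to 22 counts a library in these groups and Hist1h2bc was the only member called higher with DESeq2, with its size factors or library totals in edgeR, without the filter, with mouse as a block or without mouse E. Of the H2B genes, Hist2h2bb differed by -2.70 ± 0.43 (adjusted p = 0.000203) in WT and -3.24 ± 0.34 (adjusted p = 1.31e-05) in KO mice, and Hist1h2be by -1.26 ± 0.25 (adjusted p = 0.00111) in KO mice. Hist2h2bb overlaps other annotated transcripts in 45.4% of its windows, and the annotation of Hist1h2be overlaps Hist1h1e on the same strand, so reads there cannot be assigned to 1 gene.

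The linker histone genes differed among themselves. Hist1h1c and Hist1h1e, with the highest levels per kilobase of the H1 genes, overlapped between organs in WT mice: Hist1h1c was at 70.0 to 96.5 CPM in WT liver and 72.2 to 96.7 in WT brain, with a log2 fold change of -0.04 ± 0.18 (adjusted p = 0.852), and Hist1h1e at 68.8 to 83.7 and 73.4 to 95.9 CPM, with -0.14 ± 0.16 (adjusted p = 0.461). In KO mice the values were -0.28 ± 0.18 and 0.20 ± 0.13, neither called, although the KO libraries of Hist1h1e did not overlap (81.0 to 87.0 CPM in liver, 68.6 to 76.9 in brain). These values depend on scaling. Library totals alone gave -0.88 and -0.99 in WT and -0.81 and -0.34 in KO mice, where Hist1h1e turned negative. Over the alternative settings of edgeR and DESeq2 the lowest adjusted p-values were 0.00150 and 0.000398 in WT and 0.00436 and 0.0460 in KO mice. Both genes were thus called under some setting in each genotype. Of the windows of Hist1h1e, 21.7% overlap another transcript annotated at the same place, so its values are uncertain as values of a single gene. Hist1h1b, by contrast, was at 0.707 to 1.35 CPM in WT liver and 4.11 to 6.796 in WT brain, a log2 fold change of -2.58 ± 0.38 (adjusted p = 0.000112), and Hist1h1a differed by -1.89 ± 0.29 (adjusted p = 0.000208) in KO mice.

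Organ differences are given next by annotated transcript end. The 24 members whose annotated transcript ran more than 60 bases past the stem-loop had a median log2 fold change of -1.20 over the 18 tested in WT mice, all of them negative. The 22 that ended within 60 bases had a median of -0.41 over the 10 tested, 7 of them negative, and the 21 without a stem-loop in their annotation had -1.71 over 13. In KO mice the 3 medians were -1.19, -0.29 and -1.79. Each set held members that entered through brain and could only be lower in liver. In WT mice they were Hist3h2ba in the first set, Hist1h2ag and Hist1h2bf in the second and Hist1h2ai and Hist1h3i in the third. Over all genes tested, 9503 of 17694 were negative in WT mice. The distance of 60 bases was set after the values were seen, so these are descriptions without a test.

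Other genes of the pathway lay in both directions between the organs, and how many in each depended on the scaling. Of the 27 genes for S phase and mitosis, 21 were tested in WT mice, of which 10 were higher and 6 lower in liver, with a median log2 fold change of 0.61. Over all genes tested 35.4% were called higher and 42.9% lower in WT liver, and 36.2% and 44.1% in KO liver, so that the list's 16 calls among 21 genes lay near the 78.3% called of all genes. Tk1, the thymidine kinase of dividing cells, rose by 7.21 ± 0.41 (adjusted p = 6.11e-08) from brain to liver, and Mki67, a marker of proliferation, by 3.49 ± 0.40 (adjusted p = 1.86e-05). Rrm2, a subunit of ribonucleotide reductase, was higher by 3.17 ± 0.42 (adjusted p = 4.92e-05), and Ccne2, a cyclin of the start of S phase, lower by -2.74 ± 0.36 (adjusted p = 4.52e-05). The summed level of this list was 112 to 115 CPM in WT liver and 74.2 to 85.4 CPM in WT brain. Without TMM factors the sum was 81.5 to 93.0 CPM in WT liver and 102 to 122 in WT brain, so that its direction turned. With library totals alone 7 genes of the list were higher and 9 lower in WT liver, and the median was -0.23, where that of all genes was -0.99 and that of the members -2.03. In KO mice 10 of the 20 tested were higher and 4 lower in liver, with a median of 0.61, and with library totals alone 8 were higher and 8 lower, with a median of 0.07. On the TMM scale Tk1 was at 5.65 ± 0.43, Mcm3 at 2.34 ± 0.27, Mcm7 at 1.47 ± 0.18 (subunits of the replicative helicase) and Rrm2 at 3.68 ± 0.51.

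Of the 19 genes that transcribe histone genes or process their mRNAs, 18 were tested in WT mice, with 4 higher and 5 lower in liver, or 9 of 18 called beside 78.3% of all genes. Lsm11, a subunit of the U7 snRNP, was lower in liver by -2.23 ± 0.20 (adjusted p = 2.16e-06), Cstf2, a cleavage factor, by -1.52 ± 0.16 (adjusted p = 1.03e-05), and Npat, the coactivator of histone transcription, by -1.04 ± 0.18 (adjusted p = 0.000296). Lsm10, the other Lsm protein specific to the U7 snRNP, was higher in liver by 1.58 ± 0.30 (adjusted p = 0.000725). The partners thus went in opposite directions. Of the 11 genes for histone variants made outside S phase, 5 were higher and 4 lower in WT liver, again near the share of all genes: H2afy2, a macroH2A, differed by -3.68 ± 0.28, H1fx, a linker histone, by -6.52 ± 0.59, Cenpa, the centromeric H3, by 2.83 ± 0.46, and H1f0, the linker histone of resting cells, by 1.03 ± 0.17. Of the 16 histone chaperones, 15 were tested, with a share of calls close to that of all genes: 6 were higher, among them Hjurp (2.11 ± 0.22) and Chaf1b (3.94 ± 0.54), and 6 lower, among them Nap1l1 (-1.03 ± 0.21). Nasp, a chaperone of H1 and H3, was higher by 0.65 ± 0.16. In KO mice the counts higher and lower in liver were 5 and 6, 7 and 3, and 6 and 7 for these lists. With library totals alone, the counts higher and lower in WT liver were 1 and 15 for processing, 1 and 6 for variants and 2 and 11 for chaperones. That scaling also moved the median of all genes lower in WT liver, as given above, so the surplus of lower calls is not particular to these lists. In KO liver they were 3 and 12, 3 and 4, and 3 and 8. In WT mice Nasp turned to -0.19 and H1f0 was at 0.18 (adjusted p = 0.397), so these splits hold for the TMM scale.

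The genotypes were then compared within each organ. In liver 32 members were tested and none was called between KO and WT with edgeR's quasi-likelihood test or with DESeq2, while edgeR called 0 of 14075 genes (0%) and DESeq2 171. At an unadjusted p under 0.05, 1 member (Hist1h3i) and 7.33% of all genes stood out. The members' median, KO against WT, was 0.22 on the log2 scale, that of all genes rounded to 0, and 22 members were positive. In 4 members, all with higher KO values, the libraries of both genotypes were fully separated, as in 13.2% of all genes. In brain 42 members were tested and none was called by either tool, while edgeR called 11 of 17188 genes (0.064%) and DESeq2 269. Again 1 member, Hist1h2bb, had an unadjusted p under 0.05, beside 11% of all genes. The median was 0.14 and 28 were positive, 3 members were separated between genotypes (beside 16.4% of all genes), and scaling by library totals alone turned the median to -0.09 as it moved that of all genes to -0.23. The GC offset instead moved it to 0.40 and that of all genes to 0.22.

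**Figure D4:**
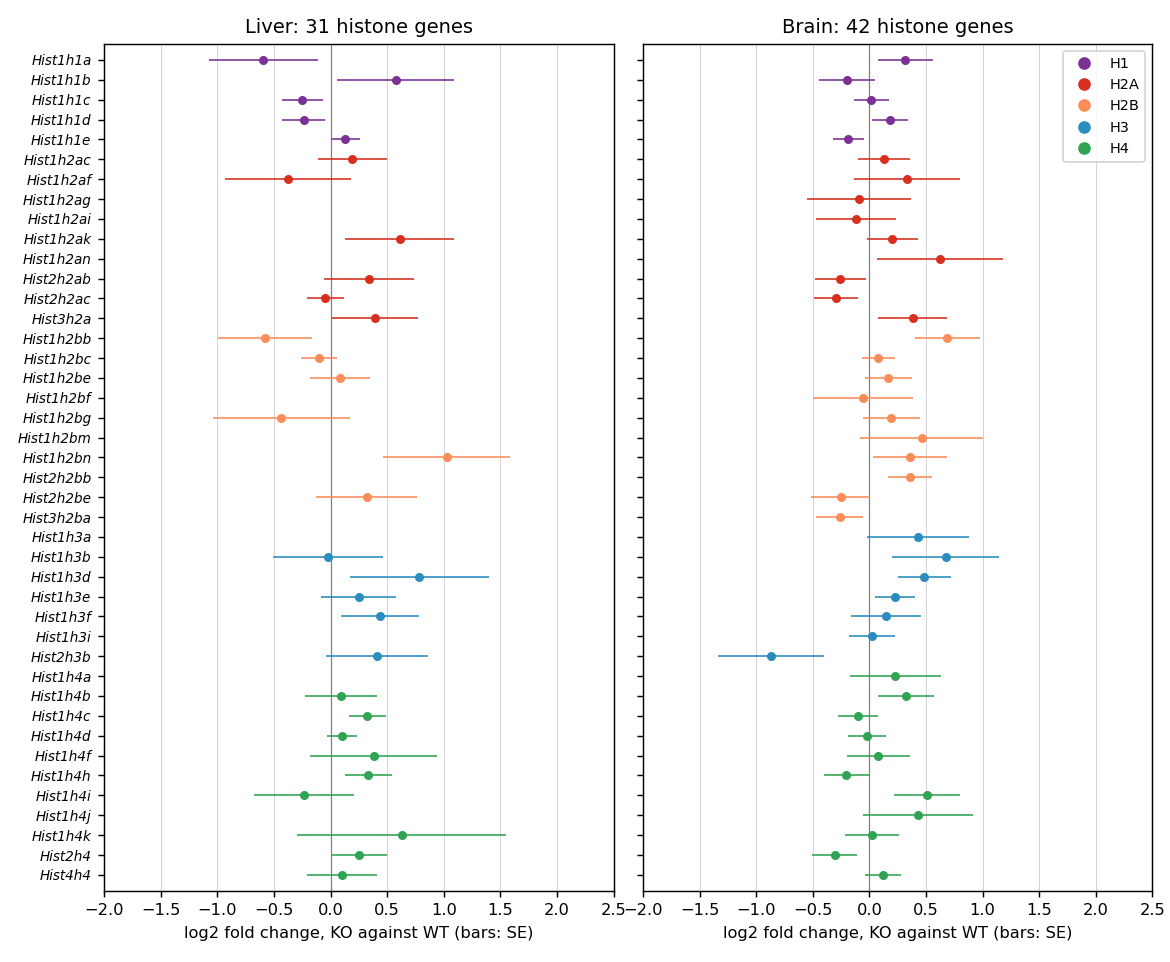
log2 fold change of KO against WT for the members tested in liver (left, 31 genes) and brain (right, 42 genes); points are estimates, bars SEs and colours histone classes. Hist1h3i in liver, with under 10 counts in every WT library, is not drawn, and of the others Hist1h2bn in liver alone lies beyond 1 from 0, at 1.03 ± 0.56.

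Hist1h3i had the smallest p of the members in liver. Its counts were 4, 0 and 1 in the WT liver libraries and 17, 12 and 16 in the KO liver libraries, or 0.262, 0 and 0.0707 against 1.31, 0.857 and 1.07 CPM. The groups did not overlap, but the gene passed the filter through the KO libraries, so a higher KO value was the direction open to it and no fold is given over 5 WT counts. It was not called (adjusted p = 0.428). Over the other settings its adjusted p ran from 0.0252, without the filter on low counts, to 0.985, without mouse B. In brain the gene was at 4.64, 5.56 and 5.42 CPM in WT and 5.67, 4.48 and 5.69 in KO libraries, with 0.02 ± 0.21 (adjusted p = 0.976). It shares 68.6% of its windows with other transcripts, most with Hist1h3h, which had 25 counts over all libraries.

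The next members in liver were Hist1h4c, at 11.0 to 13.2 CPM in WT and 14.1 to 16.9 in KO libraries (0.32 ± 0.16, adjusted p = 0.738), and Hist1h2bn, at 0.196 to 0.876 and 0.9996 to 1.31 CPM (1.03 ± 0.56, adjusted p = 0.766). Hist1h4h had a value of 0.33 ± 0.21, Hist1h2bb of -0.58 ± 0.42 and Hist1h1c of -0.25 ± 0.18, with adjusted p-values from 0.794 to 0.849. For the highest genes the spread allowed only small values, as for Hist1h2bc at -0.10 ± 0.16 and Hist1h4d at 0.10 ± 0.13. The B cell markers summed to 30.1 to 178 CPM in the WT and 9.30 to 15.04 in the KO liver libraries, without overlap, and of the 5 markers 3 were tested and none was called. The erythroid markers overlapped, at 27.7 to 133 and 23.1 to 130 CPM. The part of these cells in the members' values was not tested.

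In brain Hist1h2bb, an H2B gene, was at 2.42, 1.83 and 1.42 CPM in the WT and 3.18, 2.95 and 2.95 CPM in the KO libraries, which did not overlap (0.69 ± 0.29, adjusted p = 0.430). The values of the next 5 were 0.49 ± 0.24 for Hist1h3d, -0.87 ± 0.47 for Hist2h3b, 0.36 ± 0.20 for Hist2h2bb, 0.51 ± 0.29 for Hist1h4i and -0.31 ± 0.20 for Hist2h4, with adjusted p-values from 0.471 to 0.570. Markers of brain regions differed beside them. All 5 olfactory bulb markers were called higher in KO brain, among them Omp (3.70 ± 0.32), Cdhr1 (2.72 ± 0.32), S100a5 and Sp8. Of the 5, only 2 passed the filter on low counts in the comparison of WT organs, Omp and Cdhr1. S100a5 and Sp8 thus entered through KO brain, so a higher KO value was the direction open to them and no fold is given. The 5 markers summed to 27.4 to 38.8 CPM in KO and 2.37 to 4.11 CPM in WT libraries. The neuroblast markers summed to 57.7 to 72.2 CPM in KO and 27.8 to 43.3 in WT brain, with 4 of 5 positive, 1 negative and none called. Dcx was at 1.16 ± 0.23, and Igfbpl1, which also entered through KO brain, is given no fold. The cerebellar markers summed to 44.7 to 279 and 467 to 732 CPM, with Car8 at -1.70 ± 0.42 and Cbln1 at -1.76 ± 0.48, neither called. The part of regional makeup in the members' brain values was not tested.

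Other genes of the pathway gave no call between genotypes. Of the factors of histone mRNA synthesis and processing, 18 were tested in liver and 19 in brain, with medians of -0.05 and -0.02. Casp8ap2, a factor of histone gene transcription, had the smallest p in liver (-0.99 ± 0.30, adjusted p = 0.476), followed by Sympk, a scaffold of the cleavage complex (0.27 ± 0.12), and Cpsf3, the endonuclease that cuts histone pre-mRNA, had the smallest in brain (-0.52 ± 0.17, adjusted p = 0.378), followed by Casp8ap2 (0.42 ± 0.16). For S phase and mitosis the medians were 0.08 and -0.03, with Mki67 at -1.14 ± 0.41 and Rrm2 at -0.89 ± 0.33 in liver and Rrm1 at -0.49 ± 0.20 and Mki67 at 0.95 ± 0.40 in brain. For histone variants they were -0.02 and -0.17, with H2afy (0.15 ± 0.15) and H2afv (0.09 ± 0.13) foremost in liver and H3f3b (-0.32 ± 0.14) and H2afy (-0.24 ± 0.14) in brain. For chaperones they were -0.13 and -0.08, with Hjurp (-0.31 ± 0.20) and Nasp (-0.22 ± 0.15) foremost in liver and Hjurp (-0.54 ± 0.21) and Chaf1a (-0.39 ± 0.19) in brain.

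Whether the genotype effect differed between organs was tested with an interaction term, positive where KO against WT was higher in liver than in brain. None of 44 members tested was called by edgeR's quasi-likelihood test and 1, Hist1h3i, by DESeq2, beside 0 of 18944 genes (0%) for edgeR and 369 for DESeq2. At an unadjusted p under 0.05 there were 3 members, Hist1h3i, Hist1h2bb and Hist1h2bf, beside 10.6% of all genes. The median log2 difference of the members was 0.13, against 0.04 for all genes, and its sign changed with the filter, the tool and the mice used. Hist1h3i (adjusted p = 0.136) is given no value, since its WT liver libraries held 4, 0 and 1 counts. Hist1h2bb differed by -1.23 ± 0.48 (adjusted p = 0.396) on the log2 scale. Hist1h2bf (adjusted p = 0.455) had 6, 8 and 2 counts in WT liver and 0, 2 and 1 in KO liver, at the floor, and is given no value either. Hist3h2ba, at 0 in WT liver, gives no fold here, and Hist2h3b and Hist2h4 had 1.32 ± 0.68 and 0.60 ± 0.32 (adjusted p = 0.528 and 0.532).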

How the data were processed

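Total RNA from liver and brain of 6 mice was sequenced by the authors as strand-specific 100-base single reads (SMARTer stranded kit), trimmed with Trimmomatic, aligned to mm10 with STAR 2.7.3a and counted over exons with featureCounts, and the deposited values are raw read counts per gene. The handling of reads that map to several places is not given in the sources used here. Library totals were 14403309 to 21623180 counts, and intervals and floors cover counting error only. Groups came from the sample labels.

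Counts were fitted here with edgeR 4.0.16 (R 4.3.3; TMM, filterByExpr, robust quasi-likelihood test, 2-sided) for 5 comparisons, adjusting p by Benjamini-Hochberg over every tested gene, with calls at 0.1. Each tissue or genotype comparison used only its own 6 libraries and the interaction all 12. SE was taken as the log2 fold change divided by the square root of F. DESeq2 1.42.0 was an alternative, as were other scalings, no filter, a GC offset, Y-linked transcripts as a covariate, and leaving out mice. The scripts were tested on simulated counts. A group with at most 3 counts in every library was taken as at the floor, and a fold against 0 is given as a bound.

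The members and the 14 gene lists (119 genes) were chosen with earlier results of these data known. Named members were those called, up to 12 by smallest p, or the 6 with the smallest p where fewer than 6 were called, the 5 highest per kilobase in each tissue, and up to 5 with no counts. From other lists up to 4 called genes, or 2 where none was called, are named. Hist1h3a, Hist1h3b, Hist1h2ac, Hist2h2be, Hist1h2ak, Hist1h3h and Hist1h4k were named after their values were seen. The mouse letter pairs liver with brain of the same animal, although liver and brain deviations of a mouse correlated at -0.0339 to 0.116. Columns left unused numbered 0.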

Additional observations from a re-analysis of the deposited data

Results flagged for a closer look

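The genotype effect on Hist1h3i in liver minus that in brain had an adjusted p of 0.136 by edgeR's quasi-likelihood test. It is listed because the adjusted p was 0.0190 without the filter on low counts and 0.00957 with DESeq2, in a range up to 0.767 over the alternatives. The WT liver libraries held 4, 0 and 1 counts of it and the gene was tested through its other libraries, so no size is given and these calls rest on those few counts.

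Among the pseudogenes left out, Hist3h2bb-ps, on chromosome 11 beside Hist3h2a and Hist3h2ba, reached 34 counts in a brain library. It had 12 to 34 counts in the brain libraries and at most 1 in the liver libraries. Of the windows of Hist3h2ba, 4.85% were also found in other transcripts, most of them in this pseudogene.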

How the results depend on the processing

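Most values kept their direction and their side of the threshold: 93 of 98 in KO against WT liver, 97 of 98 in brain, 123 of 128 and 120 of 128 in liver against brain of WT and KO mice, and 76 of 78 in the interaction. The values counted were the log2 fold changes of the members named by the rule, and of Mettl5 between genotypes, under each alternative. A value that stayed uncalled with the same sign counts as kept, and the members' medians were not counted. These members were picked by small p or high level, so the counts do not cover the other members. Without the filter on low counts 1 member was called in liver and 1 in the interaction, and DESeq2 called 1 in the interaction. Library totals alone gave medians of -0.0882 in KO against WT brain, -2.03 and -1.61 in liver against brain of WT and KO mice, and 0.413 in the interaction, and turned Hist1h1e in KO mice to -0.336. The GC offset gave 0.398 in brain. No filter gave -0.892 in WT liver against brain and -0.130 in the interaction, and DESeq2 -0.940 and -0.185. The causes were not tested. As a share of all counts (CPM without TMM factors) the members' sum was 321, 341, 740 and 620 CPM in WT liver, KO liver, WT brain and KO brain.

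Leaving out 1 mouse gave 26 to 29 calls in WT and 23 to 26 in KO mice, medians of -1.26 (without C) to -0.845 (without A) in KO mice and of -0.0492 (without B) to 0.178 in the interaction, and -0.336 to 0.0377 (without D) for Hist1h1e in WT mice. Hist2h2ac in WT mice lost its call without D (-0.355) and Hist1h4h without B (-0.500). With mouse as a replicate block, 30 members were called in WT mice (median -1.197), 27 in KO mice (-1.129) and 0 in the interaction (0.130). There the block with a GC offset gave a median of -0.157. The block ended the calls of Hist1h3a and Hist1h3b in WT mice but of no member named by the rule. In the main fit 31 of 41 members tested were called in WT and 28 of 38 in KO mice, beside 78.3% and 80.2% of all genes. Shares of all genes called under the alternatives are not given, so these counts are not read as a trait of the members. DESeq2 called 171, 269 and 369 genes in the liver, brain and interaction comparisons, where edgeR called 0, 11 and 0. Members with at least 50% unique transcript windows, a choice made after seeing the data, gave 24 calls in each genotype, 22 lower in WT and 23 in KO mice. These were among 32 tested in WT and 31 in KO mice, beside 78.3% and 80.2% called of all genes. Members with at least 10 counts in a library of each organ, also chosen after seeing the data, gave 27 calls of 36 in WT and 25 of 35 in KO mice. Of all such genes 72.1% and 74.2% were called. The members' medians were -1.08 and -0.982. Uniqueness in the genome was not run.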
